A study of Rattus norvegicus with 16 samples.

Results

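The genes described here are 8 members of the pathway that takes up glucose and splits it to pyruvate and lactate: the aldolases Aldoa and Aldoc, the hexokinase Hk2, the liver phosphofructokinase Pfkl, the phosphoglycerate kinase Pgk1, the lactate dehydrogenase subunit Ldha and the glucose transporters Slc2a1 and Slc2a2. Members were taken by gene name from the array annotation, which gave 10 probes for the 8 genes among 26269 gene names and 30367 probes. They were chosen by their levels in the 4 groups on these same arrays, so their values are given as a description, without a p-value. Where the call rule used for all genes is applied to them, the calls are counts and no evidence about them. The tests are kept for a list of other genes of the pathway. Expression was measured on 16 one-colour Agilent rat arrays of H35 cells, a rat hepatoma line that keeps part of the hepatocyte programme, to learn what silencing of Pdrg1, a gene regulated by p53 and DNA damage, does to the transcriptome.

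All cells were H35 in DMEM with fetal bovine serum, and all, control cells included, were transfected with a plasmid and selected with G418 at 1.8 mg/ml for 2 weeks. CN-10 is 1 stable clone with a negative control shRNA. The groups 4-18 and 3-44 are 1 stable clone each, carrying the shRNA4 and the shRNA3 plasmid against Pdrg1. These 3 clones went through 2 additional weeks at 4 mg/ml G418. The group shRNA3T is a pool of cells transiently transfected with shRNA3 that was enriched by the first selection only. Each group has 4 arrays, described in the labels as biological replicates, so the spread within a group is that of 1 clone or 1 pool and not of independent clones, and a difference between clones cannot be told apart from an effect of the plasmid. Each group also filled a slide of its own, and the 4-18 slide was scanned on another day, so an effect of the slide cannot be told apart from one of the group. Pdrg1 itself had a log2 intensity of 13.64 ± 0.22 (SD, n = 4) in the control clone, 12.87 ± 0.87 in 4-18, 12.65 ± 0.51 in 3-44 and 12.79 ± 0.27 in the pool, with all arrays of each silenced group below all those of CN-10 and adjusted p (limma) of 0.129, 0.105 and 0.143.

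The 4-18 arrays were the dimmest, with 53.1 to 64.1% of the spots well above background and a 75th percentile of processed signal of 1613 to 1878, against 64.7 to 74.3% and 2290 to 3647 on the other arrays. Of 8 hepatocyte marker genes, all were detected on every array outside 4-18 and 6 on every 4-18 array, where detected means flagged as well above background. Their log2 levels summed to 103.8 to 106.2 in CN-10, 103.17 to 106.07 in 4-18, 109.09 to 113.2 in 3-44 and 107.19 to 109.87 in the pool, sums that cover markers moving in opposite directions. Mean Ttr was 13.76 in CN-10 and 16.69 in 4-18, whereas Tf was 16.43 and 14.93, and Apoa1 was 10.16 in CN-10, 8.04 in 4-18 and 12.34 in 3-44. Of 3 fibroblast, 2 endothelial and 2 blood cell markers, Dcn, Pecam1 and Ptprc were at background and averaged 6.38 or less in every group, while Col1a1, Cdh5 and Cd68 averaged 7.36 to 8.53. The summed levels were 20.47 to 21.43, 13.57 to 14.82 and 13.51 to 14.26 over the 16 arrays. How far these differences enter the values below was not tested.

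Glucose enters liver cells through facilitative transporters, is trapped by hexokinases or glucokinase, and is committed to glycolysis by phosphofructokinase. Aldolase then splits fructose bisphosphate into a pair of triose phosphates, phosphoglycerate kinase makes ATP from one of their products, and lactate dehydrogenase turns pyruvate into lactate. Many of these steps have isoenzymes with a tissue bias: Aldoa is the muscle and ubiquitous form and Aldoc the brain form, Slc2a2 (GLUT2) is the transporter of hepatocytes and Slc2a1 (GLUT1) that of most proliferating cells, and hepatoma cells often carry isoenzymes that normal adult liver has little of.

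Aldoc was the member that differed most. Its brighter probe (NM_012497, rn4 chr10:64308833-64308892) was low in CN-10 and read 41.7 to 53.5 times higher in the 3 silenced groups. On the log2 scale the CN-10 arrays read 7.30, 7.15, 7.76 and 7.38 in replicates 1 to 4. The 4-18 arrays read 12.98, 13.10, 12.55 and 13.16, the 3-44 arrays 12.79, 12.80, 12.55 and 12.99, and the shRNA3T arrays 13.47, 13.03, 13.01 and 13.05. No silenced array came within 4 log2 units of a CN-10 array, while the silenced groups lay close to each other. In background-subtracted spot intensity, before any normalization, CN-10 gave at most 212 and the silenced arrays gave 4213 to 11476, and the probe was well above background on all 16 arrays. The log2 difference from CN-10 was 5.55 ± 0.16 (SE of the fit, n = 4 arrays a group) in 4-18, 5.38 ± 0.16 in 3-44 and 5.74 ± 0.16 in shRNA3T. These were the first of all gene names when ranked by log2 difference in each comparison. The 3 comparisons use the same 4 CN-10 arrays, so the low level of Aldoc in this 1 control clone enters each of them.

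The second Aldoc probe (rn4 chr10:64309543-64309602), on the same transcript accession, was also higher in all 3 silenced groups than in CN-10, with smaller differences. It read 6.38, 6.62, 6.62 and 6.55 in CN-10, where only 2 of the 4 arrays were well above background. The 12 silenced arrays ran from 8.62 to 9.58, with group means of 9.33 ± 0.29 in 4-18, 8.80 ± 0.18 in 3-44 and 8.98 ± 0.12 in shRNA3T (SD, n = 4). Its log2 differences were 2.79, 2.26 and 2.43, each ± 0.13 (SE), or 6.90, 4.78 and 5.40 times the CN-10 level. The probes thus gave the same direction in all 3 comparisons, and the size on the second probe is uncertain because only 2 of its 4 control arrays were well above background. Of the genes next to Aldoc in the RefSeq order, taking 5 on each side, 8 were on the array, 2 of them were called in some comparison with CN-10 (7.99% of all genes were), and their log2 differences from CN-10 lay between -0.51 and 1.41.

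The probe letters show what was measured. The lower Aldoc probe and the Aldoa probe are given whole, and the brighter Aldoc probe, which holds a polyadenylation hexamer, by its first 30 bases, all 5′ to 3′ as in the array files.
Aldoc, lower probe: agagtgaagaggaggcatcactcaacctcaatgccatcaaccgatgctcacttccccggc
Aldoc, brighter probe, first 30 bases: atcgggatgtgaaccctggcccagactcac
Aldoa probe: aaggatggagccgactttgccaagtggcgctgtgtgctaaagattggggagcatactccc
The lower Aldoc probe and the Aldoa probe are 60 bases long and have 55% G and C each.

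Aldoa, the aldolase of muscle and of most cells, was already bright in CN-10 and differed far less. Its single probe (NM_012495, rn4 chr1:185972062-185972121) read 15.62, 16.06, 15.96 and 15.94 in CN-10. The 4-18 arrays read 16.79, 16.85, 17.02 and 16.93, the 3-44 arrays 16.62, 16.15, 16.25 and 16.53, and the shRNA3T arrays 15.79, 16.26, 16.26 and 16.24. All 4-18 and 3-44 arrays lay above all CN-10 arrays, while shRNA3T overlapped CN-10 through its replicate 1. The log2 differences were 1.01 ± 0.13 (SE), 0.49 ± 0.13 and 0.25 ± 0.13, that is 2.01, 1.41 and 1.19 times the CN-10 level. The 4-18 value sits on the 2-fold limit and fell to 0.29 when the arrays were scaled by their 75th percentile and centred on the median of all probes, an alternative added after the data were seen. It was 0.43 with the deposited series values, and it fell just short of 2-fold with array weights (0.99), without replicate 1 of CN-10 (0.91), replicate 3 (0.97) or replicate 4 (0.99) of 4-18, and without replicate 1 of every group (0.95). Within each group the deviations of Aldoa and Aldoc from their group means correlated with r = -0.25 over the 16 arrays, given as a description of arrays that share slides and replicate numbers.

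**Figure D1:**
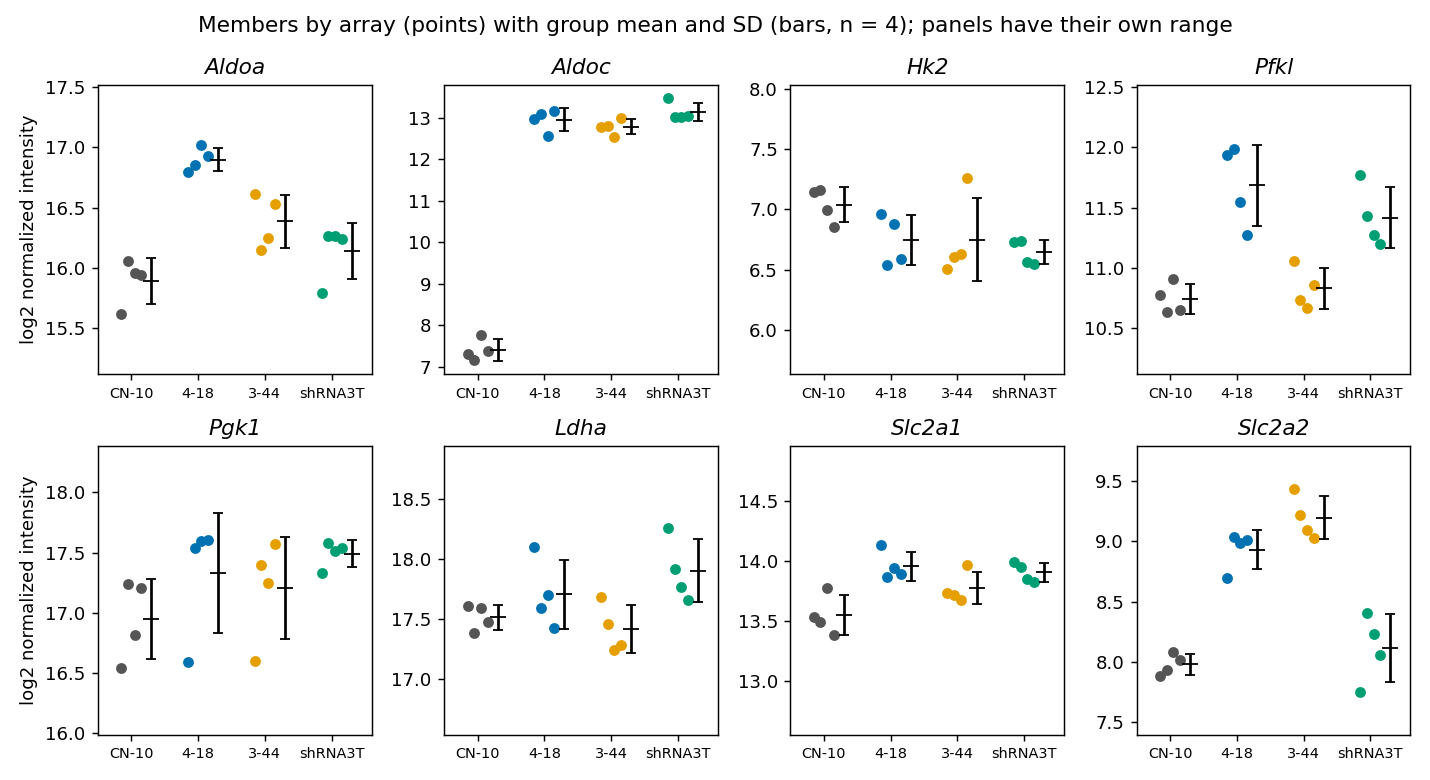
Normalized log2 intensity (vertical axis) of the brightest probe of each of the 8 genes on the 16 arrays (points, replicates 1 to 4 from left to right) in the 4 groups (horizontal axis), with group mean and SD (n = 4). Aldoc reads 7.15 to 7.76 in CN-10 and 12.55 to 13.47 in the silenced groups, and the other members move by far less on panels that each have their own range.

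The glucose transporters differed from each other in where they were higher. Slc2a2, the low-affinity transporter of hepatocytes (NM_012879, rn4 chr2:116065774-116065833), read 7.89, 7.93, 8.08 and 8.02 in CN-10 and 7.75, 8.41, 8.23 and 8.06 in shRNA3T. It read 8.69, 9.04, 8.98 and 9.01 in 4-18 and 9.44, 9.22, 9.10 and 9.03 in 3-44. Both clones lay wholly above CN-10, with log2 differences of 0.95 ± 0.13 (SE) in 4-18 and 1.22 ± 0.13 in 3-44, while shRNA3T overlapped CN-10 at 0.13 ± 0.13. The 4-18 value was 0.37 with the centred 75th percentile scaling. The clone 3-44 and the pool carry the same shRNA3 plasmid, and they differed by 1.08 ± 0.13, or 2.12 times, with no overlap of their arrays. Without replicate 1 of shRNA3T, its lowest array, the log2 difference between 3-44 and shRNA3T no longer reached 2-fold.

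Slc2a1, the transporter of most growing cells (NM_138827, rn4 chr5:139718779-139718838), is printed 10 times on the array and had a small spread. Its group means were 13.55 ± 0.17 in CN-10, 13.96 ± 0.12 in 4-18, 13.77 ± 0.13 in 3-44 and 13.91 ± 0.08 in the pool (SD, n = 4). The arrays ran from 13.39 to 13.78 in CN-10, 13.87 to 14.13 in 4-18, 13.68 to 13.97 in 3-44 and 13.83 to 13.99 in the pool, so that 4-18 and shRNA3T lay above CN-10 and 3-44 overlapped it. The log2 differences were 0.41, 0.23 and 0.36, each ± 0.10 (SE), which is 1.17 to 1.33 times. The direction of the 4-18 value turned, to -0.47 under the centred 75th percentile scaling and to -0.31 with the deposited series values.

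Hk2, the inducible hexokinase of muscle and tumours (NM_012735, rn4 chr4:116925790-116925849), was near background and was the member with a negative difference in all 3 comparisons. Its arrays ran from 6.85 to 7.16 for CN-10, from 6.54 to 6.96 for 4-18, from 6.50 to 7.26 for 3-44 and from 6.55 to 6.74 for shRNA3T, and it was well above background on 4, 2, 3 and 4 of the 4 arrays. The log2 differences were -0.30, -0.29 and -0.40, each ± 0.15 (SE), and the groups were apart in shRNA3T alone. Replicate 4 of 3-44, at 7.26, was the highest of all 16 arrays. The scaling by the 75th percentile turned the 4-18 value to 0.67, and the processed signal gave -1.50, -0.91 and -1.11 in the 3 comparisons.

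Pfkl, the liver subunit of phosphofructokinase (NM_013190), has probes at rn4 chr20:11032281-11032340 and chr20:11032161-11032220. The brighter probe read 10.77, 10.63, 10.90 and 10.65 in CN-10 and 11.94, 11.98, 11.55 and 11.27 in 4-18. It read 11.05, 10.73, 10.67 and 10.86 in 3-44 and 11.77, 11.43, 11.27 and 11.20 in shRNA3T. The 4-18 and shRNA3T arrays lay above CN-10, with log2 differences of 0.95 ± 0.16 (SE) and 0.68 ± 0.16, and 3-44 overlapped it at 0.09 ± 0.16. The 4-18 value was 0.10 with the centred 75th percentile scaling and 0.24 with the deposited series values. The dimmer probe had all 3 silenced groups above CN-10, at 1.46, 0.78 and 0.88, each ± 0.24, so the probes disagreed for 3-44.

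Pgk1, which forms ATP from bisphosphoglycerate (NM_053291, rn4 chrX:94340131-94340190), and Ldha, the muscle-type subunit of lactate dehydrogenase (NM_017025, rn4 chr1:97412370-97412429), had means above those of 98.7 and 99.1% of all probes. No spot on any array was flagged as saturated. Pgk1 averaged 16.95 ± 0.33 in CN-10, 17.33 ± 0.50 in 4-18, 17.20 ± 0.42 in 3-44 and 17.49 ± 0.11 in the pool (SD, n = 4). Replicate 1 was the lowest array of each group, at 16.55, 16.59, 16.60 and 17.33, and only shRNA3T lay wholly above CN-10, by 0.54 ± 0.24 (SE).

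Ldha averaged 17.52 ± 0.10 in CN-10, 17.70 ± 0.28 in 4-18, 17.42 ± 0.20 in 3-44 and 17.90 ± 0.26 in the pool (SD, n = 4). For this gene replicate 1 was the highest array of each group, at 17.61, 18.10, 17.68 and 18.26. The shRNA3T arrays lay above those of CN-10 by 0.39 ± 0.15 (SE), and the 2 clones overlapped CN-10 at 0.19 and -0.10. The deviations of Pgk1 and Ldha from their group means ran opposite to each other over the 16 arrays (r = -0.77), those of Pfkl and Ldha ran together (r = 0.78), and both are descriptions of arrays that share replicate numbers and slides. Probes of Pgk1, Ldha and the other abundant glycolytic enzymes can also bind RNA of near-identical copies in the genome.

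**Figure D2:**
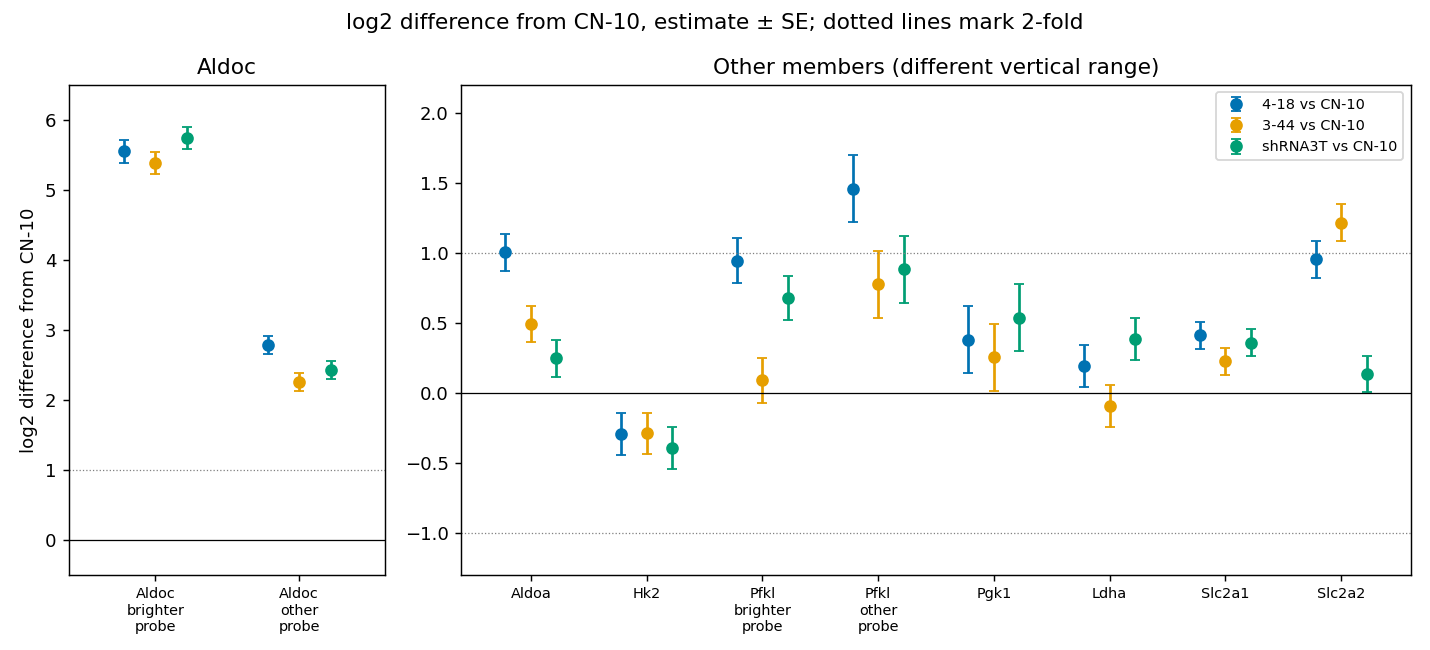
Log2 difference from CN-10 (vertical axis, estimate ± SE of the fit) for every probe of the 8 genes (horizontal axis) in 4-18, 3-44 and shRNA3T, with dotted lines at 2-fold. The Aldoc probes lie at 5.38 to 5.74 and at 2.26 to 2.79, and all other probes lie between -0.40 and 1.46.

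Counted by the rule used for all genes, at least 2-fold with a limma adjusted p under 0.05, the called members were Aldoa and Aldoc in 4-18 against CN-10 (2 of 8, where 2.62% of all genes were called higher), Aldoc and Slc2a2 in 3-44 (2 of 8, background 0.685%) and Aldoc in shRNA3T (1 of 8, background 1.2%). In 4-18, 5 of the 8 members had all arrays above those of CN-10, where 12% of all genes did, in 3-44 the count was 3 (7.24%), and in shRNA3T 5 (11%). Between silenced groups Slc2a2 was called in 3-44 against shRNA3T (1 of 8, background 2.12%), and none of the 8 was called in 4-18 against 3-44 (background 4.98%) or against shRNA3T (4.56%). Because the members were picked on these arrays, these shares are no evidence about them. Their median log2 difference was 0.68 in 4-18, 0.24 in 3-44 and 0.37 in shRNA3T, against 0.00, -0.01 and -0.01 over all genes.

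The arrays on which each aldolase was high can be described by the genes whose values followed it most closely. Over the 16 arrays and 10075 candidate genes, Aldoc ran closest to Mttp, which loads lipid onto lipoproteins (r = 0.98), to Pla2g15, a lysosomal phospholipase (r = 0.98), and to Agmat, an agmatinase (r = 0.97). Mttp averaged 7.09 in CN-10 and 9.78, 10.13 and 10.01 in 4-18, 3-44 and shRNA3T. Aldoa ran closest to Esrp2, a splicing regulator, to Cnot8, a deadenylase subunit, and to Sec16a, a protein of endoplasmic reticulum exit sites (r = 0.96 each). Cnot8 averaged 11.82, 12.79, 12.37 and 11.96 in CN-10, 4-18, 3-44 and shRNA3T, which is the order of Aldoa.

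Promoter letters were compared because hypoxia-inducible factors and the carbohydrate-responsive factors, which control several glycolytic genes, bind sites built around short core sequences. RefSeq promoter windows of assembly GRCr8, from 250 bases before to 50 after the annotated start, were found for 7 of the 8 members. The cores ACGTG and GCGTG were searched on both strands, where ACGTG also lies within the palindrome CACGTG. At least 1 of the 2 cores occurs in 41.6% of 33469 rat promoter windows of this length and in 5 of the 7 members, and CACGTG in 6.42% of windows and in 1 member, Ldha. The windows of Aldoc, of its isoenzyme Aldoa and of Ldha, which has the most matches, are shown, with matches in capitals.
Aldoc promoter (chr10:63715294-63715593, plus strand): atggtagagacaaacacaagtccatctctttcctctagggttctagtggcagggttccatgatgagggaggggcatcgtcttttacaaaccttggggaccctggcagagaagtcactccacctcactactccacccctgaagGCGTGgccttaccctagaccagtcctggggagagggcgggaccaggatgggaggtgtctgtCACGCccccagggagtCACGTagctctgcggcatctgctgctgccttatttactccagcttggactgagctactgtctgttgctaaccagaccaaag
Aldoa promoter (chr1:190837972-190838271, minus strand): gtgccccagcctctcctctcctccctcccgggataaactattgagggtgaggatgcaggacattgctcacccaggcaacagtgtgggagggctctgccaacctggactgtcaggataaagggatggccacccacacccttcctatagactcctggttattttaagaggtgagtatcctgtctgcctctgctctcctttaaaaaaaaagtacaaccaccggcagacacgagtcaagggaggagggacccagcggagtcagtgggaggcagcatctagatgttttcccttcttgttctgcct
Ldha promoter (chr1:106507842-106508141, plus strand): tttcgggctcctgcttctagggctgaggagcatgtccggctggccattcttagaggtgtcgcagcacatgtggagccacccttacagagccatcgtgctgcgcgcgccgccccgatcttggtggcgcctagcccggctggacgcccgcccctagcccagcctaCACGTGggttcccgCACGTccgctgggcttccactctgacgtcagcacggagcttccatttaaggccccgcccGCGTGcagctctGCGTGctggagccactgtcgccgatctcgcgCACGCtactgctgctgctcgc
The Aldoc window holds 1 ACGTG and 2 GCGTG matches, at -108, -47 and -31 from the start, the Ldha window 3 of each, and the Aldoa window none. The Ldha matches at -87 and -86 are the same CACGTG read on both strands and are not separate sites. A match is a run of letters and was not shown to be bound here.

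The rest of the pathway was tested with a list of 56 other gene names, of which 51 were on the array. The list was chosen with earlier results of these data known. In 4-18, 9 of the 51 were called higher than CN-10 (17.6%, where 2.62% of all genes were) and 1 lower (3.54% of all genes). This split depended on the scaling: it was 4 higher and 6 lower with the centred 75th percentile scaling, 18 and 0 with the same scaling not centred, and 4 and 3 with the deposited series values. At an adjusted p under 0.05 and any size, 16 were higher and 2 lower, where 11.6% and 12.4% of all genes were, and at an unadjusted p under 0.05 the counts were 20 and 3 (16.7% and 17.9%). In 3-44, 1 was called higher (background 0.685%) and none lower (0.788%), with 7 higher and 1 lower by limma's adjusted p alone (3.45% and 4.69%) and 13 higher and 4 lower at an unadjusted p under 0.05 (8.53% and 11.1%). In shRNA3T, 4 were called higher (1.2%) and none lower (1.19%), with 10 higher and 2 lower by adjusted p alone (5.13% and 7.04%) and 18 higher and 7 lower at an unadjusted p under 0.05 (10.4% and 12.9%). The counts by adjusted p alone also moved with the scaling: with the deposited series values they were 4 higher and 4 lower in 4-18, 0 and 0 in 3-44 and 2 and 0 in shRNA3T, with 75th percentile scaling 26 and 1, 2 and 1, and 5 and 0, and with that scaling centred 4 and 11, 1 and 1, and 6 and 0. The median log2 difference of the list was 0.22, 0.11 and 0.09 in 4-18, 3-44 and shRNA3T, against 0.00, -0.01 and -0.01 over all genes.

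Between glucose 6-phosphate and aldolase, all 3 listed genes of isomerase and phosphofructokinase were called higher in 4-18: Gpi, which makes fructose 6-phosphate, at 1.02 ± 0.11 (log2 difference ± SE, adjusted p = 8.56e-06), the muscle subunit Pfkm at 1.46 ± 0.12 (3.63e-07) and the platelet subunit Pfkp at 1.82 ± 0.13 (9.94e-08). Pfkp read 6.33 to 6.71 in CN-10, where 3 of the 4 arrays were well above background, and 8.01 to 8.53 in 4-18. Its log2 difference in 4-18 ran from 1.47 to 4.16 over the alternatives, the highest from the processed signal, which gave 1.11 in 3-44. Its values of 0.07 ± 0.13 in 3-44 and 0.11 ± 0.13 in the pool missed the test (adjusted p = 0.83 and 0.721), and direct tests put 4-18 above them by 1.75 (1.76e-07) and 1.71 (2.92e-07). The Gpi value of 4-18 was 0.17 with the centred scaling (adjusted p = 0.544), and in the other groups Gpi rose by 0.51 ± 0.11 in 3-44 (0.00978) and 0.85 ± 0.11 in shRNA3T (0.000113). Pfkm rose by 0.85 ± 0.12 in shRNA3T (0.00016) and read 0.24 ± 0.12 in 3-44 (adjusted p = 0.287).

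Gckr, the regulatory protein that holds glucokinase in the hepatocyte nucleus, had the largest difference on the list. It read 7.72, 7.28, 7.73 and 7.54 in CN-10 and 10.49 to 11.02 in 4-18, a log2 difference of 3.30 ± 0.16 or 9.82 times (adjusted p = 1.83e-09). In 3-44 and shRNA3T it read 0.40 ± 0.16 and 0.42 ± 0.16 above CN-10 (adjusted p = 0.178 and 0.115), and 4-18 exceeded them by 2.90 (8.73e-09) and 2.87 (1.47e-08). None of the other 3 listed hexokinase genes was called in any comparison with CN-10, with 0, 0 and 1 of them at an unadjusted limma p under 0.05 in 4-18, 3-44 and shRNA3T. The 1 gene, Hk1, named after its value was seen, rose in shRNA3T by 0.63 ± 0.18 (adjusted p = 0.0344), with its arrays above those of CN-10. None of the 5 other hexose transporters was called either, with 0, 1 and 3 of them at an unadjusted limma p under 0.05 in 4-18, 3-44 and shRNA3T.

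Ldhb, the heart-type subunit of lactate dehydrogenase, was also higher in 4-18. It read 7.63, 7.65, 7.78 and 7.31 in CN-10 and at least 10.16 on all 4-18 arrays, a difference of 2.75 ± 0.16 or 6.73 times (adjusted p = 1.25e-08). The values in 3-44 and shRNA3T were -0.25 ± 0.16 and 0.11 ± 0.16 (adjusted p = 0.449 and 0.794), and the direct tests of 4-18 against them gave 3.00 (5.98e-09) and 2.64 (3.21e-08). Slc16a1, a lactate and pyruvate transporter, was called in shRNA3T at 1.22 ± 0.36 (adjusted p = 0.0374), and read 1.16 ± 0.36 in 3-44 (adjusted p = 0.062, arrays apart from CN-10) and 0.56 ± 0.36 in 4-18 (adjusted p = 0.301). The call in shRNA3T was kept in only 19 of 29 alternative settings, and leaving out replicate 2 or 4 of CN-10 or any shRNA3T array moved its adjusted p to between 0.0704 and 0.113.

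Among the 10 listed genes from triose phosphate to pyruvate, 1 was called in 4-18, none in 3-44 and 2 in shRNA3T. Eno2, the neuronal enolase, read 8.50 to 9.03 in CN-10 and rose by 1.45 ± 0.35 in 4-18 (adjusted p = 0.00706) and 2.16 ± 0.35 in shRNA3T (0.000754), where its arrays read 10.30 to 11.06. Its second probe gave -0.13 ± 0.26 and 0.57 ± 0.26, so the probes disagree, and the 4-18 call was lost without replicate 1 of every group (adjusted p = 0.0542). That call was also lost with the centred scaling (0.73, adjusted p = 0.214) and the deposited series values (0.88, 0.113). The processed signal (0.94, 0.0226) and the mean over probes (0.66, 0.0684) ended it too. Pklr, the liver and red cell pyruvate kinase, rose in all 3 groups by adjusted p, at 0.79 ± 0.18 (0.00508), 0.92 ± 0.18 (0.0054) and 1.02 ± 0.18 (0.00163), although the 4-18 value was -0.0042 with the centred scaling. Gapdh, a frequent reference gene, rose by 0.53 ± 0.10 in 4-18 (0.000821) and 0.34 ± 0.10 in 3-44 (0.0446) and read 0.01 ± 0.10 in shRNA3T (0.979), with the 4-18 value at -0.0051 under the centred scaling. Its adjusted p in 3-44 stayed under 0.05 in only 9 of 29 alternative settings, and its other probes gave 0.15 and 0.29 in 4-18 (adjusted p = 0.424 and 0.334) and 0.33 and 0.18 in 3-44 (0.117 and 0.685). The brightest Pkm2 probe differed by -0.09, -0.32 and 0.15, each ± 0.14 (adjusted p = 0.704, 0.206 and 0.615). Its group means were only 7.39 to 7.86. Of the other Pkm2 probes, 1 was well above background on no array. The remaining probe was so on 3, 0, 3 and 3 of the 4 arrays in CN-10, 4-18, 3-44 and shRNA3T.

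At the entry to mitochondria 3 genes were named by the rule. Pdk1, a kinase that turns pyruvate dehydrogenase off, rose in all 3 groups by adjusted p, at 0.70 ± 0.17 (0.00658), 0.63 ± 0.17 (0.0315) and 0.85 ± 0.17 (0.00337), although the 4-18 value was -0.02 with the centred scaling, and the adjusted p stayed under 0.05 in 19 of 29 settings in 3-44 and 28 in shRNA3T. Pdk2, the kinase of most tissues, rose by 1.08 ± 0.13 in 4-18 (2.96e-05) and read 0.23 there with the centred scaling (adjusted p = 0.484). Of the 10 listed genes of this step 1 was called higher and 1 lower in 4-18 and none in 3-44 or shRNA3T, with 2 and 5 at an unadjusted limma p under 0.05. Pdhb, a subunit of the dehydrogenase itself, fell by 1.03 on the log2 scale in 4-18 (SE 0.33, adjusted p = 0.0337), a call that was lost without replicate 1, 2 or 4 of CN-10 or replicate 1 of 4-18 (adjusted p 0.0508 to 0.103). By adjusted p alone, 3 of the 10 were higher and 2 lower in 4-18 (11.6% and 12.4% of all genes). Among them, outside the naming rule, Pdha1, another subunit, rose by 0.67 ± 0.16 (limma adjusted p = 0.00755). The listed gene Pdp1 fell by 0.60 on the log2 scale (SE 0.19, 0.0339). Neither was followed through the alternative settings.

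Of the 10 regulators on the list, the hypoxia factor Hif1a did not pass the test at RNA level, with -0.33, -0.17 and 0.36, each ± 0.27 (adjusted p = 0.443, 0.806 and 0.497). Outside the naming rule, the hypoxia factor Epas1 and Myc were named after their values were seen. In 3-44 Epas1 rose by 0.86 ± 0.18 (limma adjusted p = 0.00883) and Myc fell by 0.68 on the log2 scale (SE 0.09, 0.000212). In 4-18 and shRNA3T Epas1 read -0.29 and 0.01 (0.304 and 0.9935) and Myc -0.19 and -0.29 (0.143 and 0.0483). These genes were not followed through the alternative settings. Egln1, the prolyl hydroxylase that marks hypoxia factors for destruction, rose in all 3 groups by adjusted p, at 1.08 ± 0.20 (0.000989), 0.84 ± 0.20 (0.0167) and 1.10 ± 0.20 (0.00174), although its 4-18 value was 0.30 with the centred scaling (adjusted p = 0.465), its 3-44 arrays overlapped CN-10 and its adjusted p in 3-44 stayed under 0.05 in 23 of 29 settings. Mlxipl, which encodes the carbohydrate-responsive factor ChREBP, rose by 1.03 ± 0.18 in 3-44 (0.00177) and 0.59 ± 0.18 in shRNA3T (0.0406), and read 0.34 ± 0.18 in 4-18 (adjusted p = 0.197), lower than 3-44 by 0.69 in the direct test (difference -0.69, adjusted p = 0.0102). Its adjusted p in shRNA3T stayed under 0.05 in 18 of 29 settings. Its partner Mlx rose by 1.00 ± 0.11 in 4-18 (1.74e-05) and fell by 0.46 on the log2 scale in shRNA3T (SE 0.12, adjusted p = 0.023, 3 arrays), where a second Mlx probe gave 0.57 and 20 of 29 settings kept the adjusted p under 0.05, and its 4-18 value was 0.14 with the centred scaling (adjusted p = 0.584). The 4 listed fructose bisphosphate kinases and phosphatases had no call, with 2, 0 and 2 at an unadjusted limma p under 0.05. Pfkfb2, named after its values were seen, rose by 0.88 ± 0.20 in 4-18 (adjusted p = 0.00531) and 0.73 ± 0.20 in shRNA3T (0.0302), with arrays above CN-10 in both. It read 0.25 ± 0.20 in 3-44 (0.583) and was not followed through the alternative settings.

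**Figure D3:**
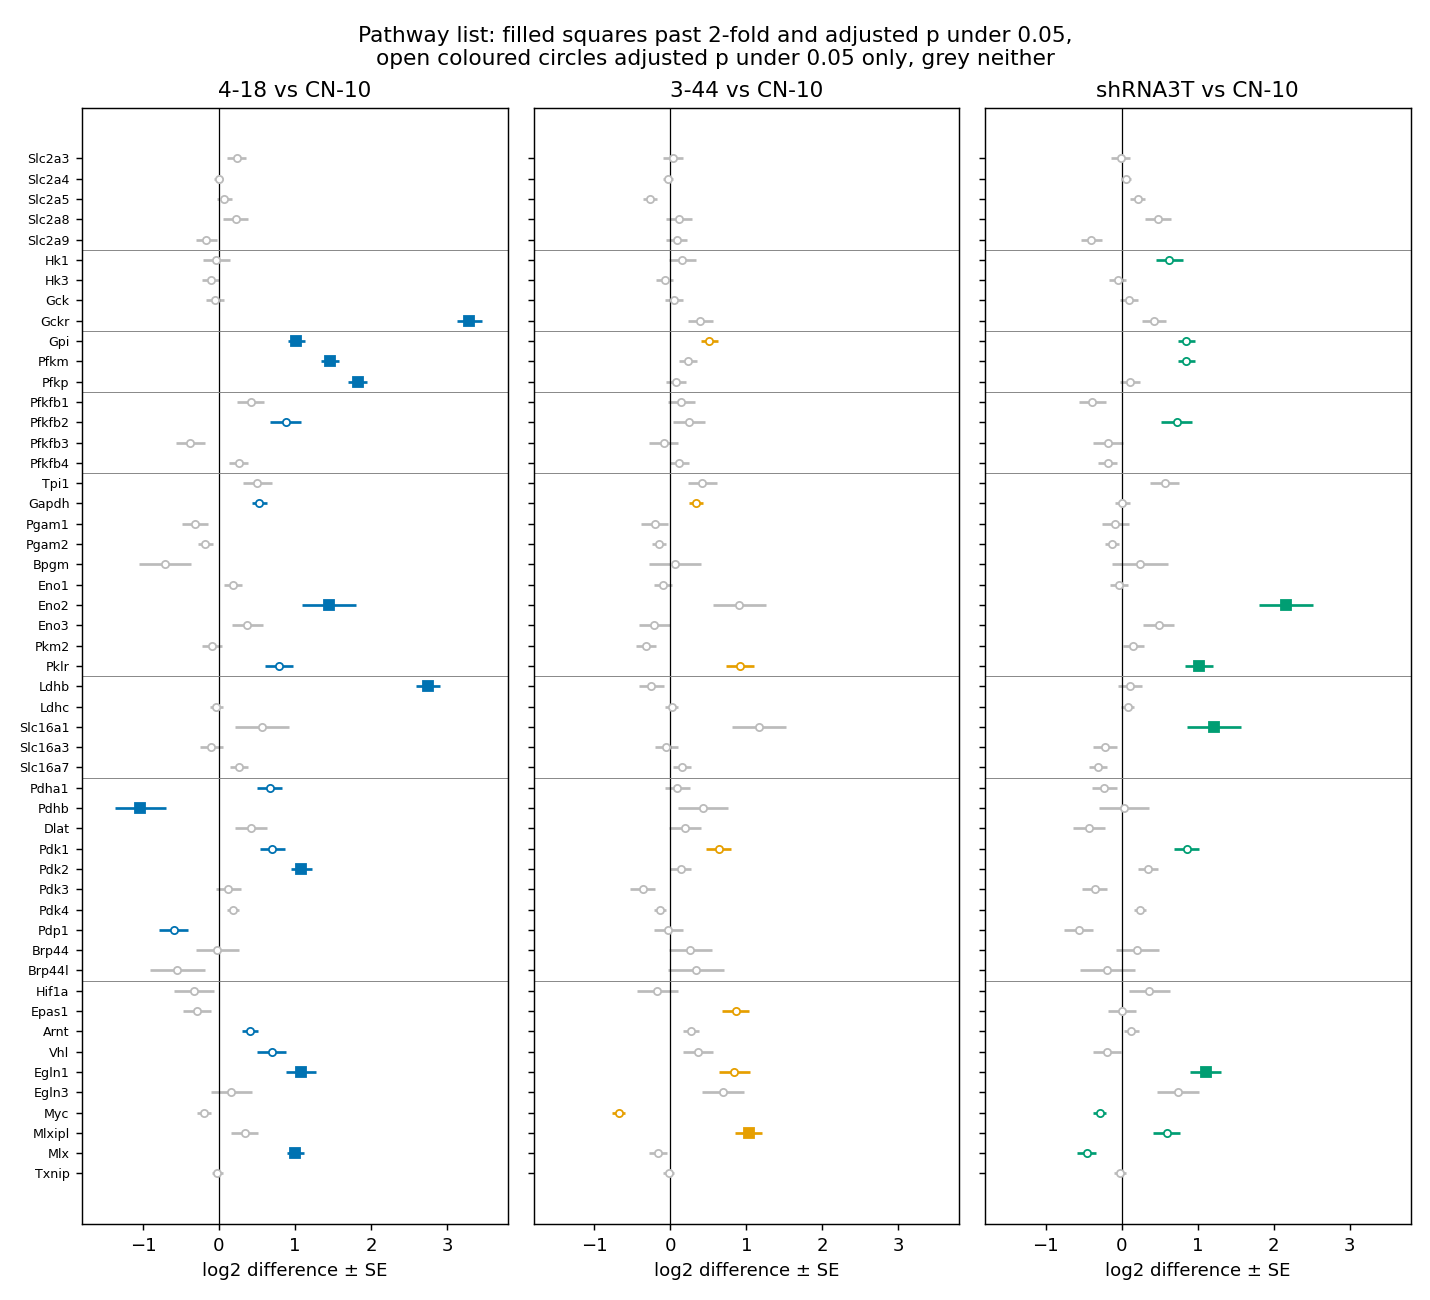
Log2 difference from CN-10 (horizontal axis, estimate ± SE) of the 51 other pathway genes (vertical axis, grouped by step) in 4-18, 3-44 and shRNA3T. Filled squares are called genes (10, 1 and 4), open coloured circles have an adjusted p under 0.05 without reaching 2-fold, and Gckr at 3.30 and Ldhb at 2.75 stand out in 4-18.

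Of the 15 calls made with named list genes in the comparisons with CN-10, 5 held under all 29 alternative settings: Gckr (2.55 to 3.67), Ldhb (2.05 to 3.42), Pfkp and Pfkm (1.07 to 1.96) in 4-18 and Eno2 (1.36 to 2.34) in shRNA3T. The centred scaling ended 5 of the 9 calls of higher genes in 4-18. Calls were also lost without single arrays: Gpi without replicate 1 of CN-10 (0.89) or 2 of 4-18 (0.97), Egln1 in 4-18 without replicate 3 of CN-10 (0.98), Pklr in shRNA3T without replicate 3 of CN-10 (1.00, just under the limit) or 1 of shRNA3T (0.98), and Mlxipl without replicate 4 of CN-10 (0.92) or 1 of 3-44 (0.86). Mlx in 4-18 was lost without replicate 2 of CN-10 (0.99) or replicate 1 or 3 of 4-18 (0.92 and 0.99). In bulk RNA fewer cells expressing a gene and less RNA per cell cannot be told apart.

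Across all alternatives the Aldoc difference stayed far from 0. Its lowest values were 4.17, 3.82 and 4.09 in 4-18, 3-44 and shRNA3T, from the mean of both probes, which is still at 14.1 times or more, and its highest were 6.83, 6.27 and 6.56, from the processed signal of the scanner software. Slc2a2 ran from 1.10 to 1.60 in 3-44 and from 0.37 to 1.23 in 4-18, while Pfkl ran from 0.56 to 0.83 in shRNA3T and fell to 0.10 in 4-18. In 4-18 the ranges of Hk2, Pgk1 (-0.25 to 0.63), Ldha (-0.36 to 0.50) and Slc2a1 (-0.47 to 0.54) included 0, as did those of Pfkl (-0.03 to 0.43) and Ldha (-0.19 to 0.11) in 3-44.

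**Figure D4:**
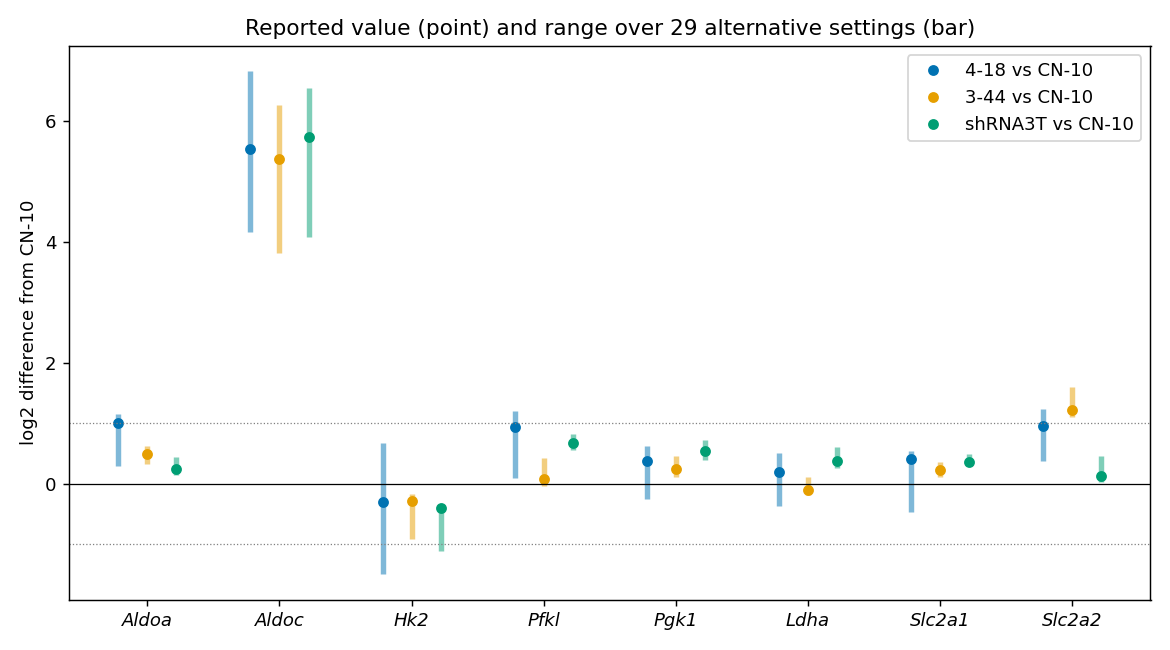
Reported log2 difference from CN-10 (points, vertical axis) of the 8 genes (horizontal axis) with the range over 29 alternative settings (bars) for 4-18, 3-44 and shRNA3T, dotted lines at 2-fold. Aldoc runs from 3.82 to 6.83, and the bars of 4-18 reach across 0 for Hk2 (-1.50 to 0.67), Pgk1, Ldha and Slc2a1.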

How the data were processed

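In all, 4 biological replicates of each of the groups CN-10, 4-18, 3-44 and shRNA3T, mapped from the sample titles, were hybridized to 1-colour arrays (RNA labelled with Cy3). Spot quantification by the authors used Feature Extraction 10.7.3.1 (submitters' processing notes), and the deposited intensity values are linear, not normalized, and annotated on rn4. The deposited series table was used as a score, because its log2 values had lost their decimal points. Restored, they matched normexp-corrected median signals (offset 50) to within 4e-11, without scaling between arrays.

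The software was R 4.3.3 and limma 3.58.1, and normexp (offset 50) removed the background. After dropping control spots, log2 values were quantile normalized, outlier-flagged spots were masked and replicate spots averaged to 30367 probes. The fit estimated a mean for each group from the 16 arrays together, with empirical Bayes moderation, and p-values were adjusted by Benjamini-Hochberg. A call needs 2-fold and an adjusted p under 0.05. A gene is represented by its brightest probe. A probe counts as well above background on an array where most of its spots carry that flag. The fit was tested on simulated data. Named list genes are those called in a comparison with CN-10, those with an adjusted p under 0.05 and 1 sign in all 3, and Gapdh, Hif1a and Pkm2. For Aldoa and Aldoc the 3 genes with the highest Pearson r were named. The members and lists were chosen with earlier results of these data known. The aldolases analysed here are A and C. The alternatives changed scaling, background, filters, weights, arrays and probes.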

Additional observations from a re-analysis of the deposited data

Results flagged for a closer look

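Among 99 groups of 4 arrays (25 genes), 14 held an array far from the other 3, where chance gives about 1 in 20 groups, and 10 of the 14 were replicate 1. In shRNA3T these were replicate 1 of Aldoa (lowest, 15.79), Aldoc (highest, 13.47), Gpi (highest, 15.72), Eno2 (lowest, 10.30) and Ldhb (highest, 8.08) and replicate 3 of Pdhb (lowest, 10.64). In 4-18 they were replicate 1 of Pgk1 (lowest, 16.59), Slc2a2 (lowest, 8.69) and Gckr (lowest, 10.49). In 3-44 they were replicate 4 of Hk2 (highest, 7.26), replicate 3 of Pfkm (lowest, 7.02) and replicate 1 of Mlxipl (highest, 10.97). In CN-10 they were replicate 1 of Gpi (lowest, 14.32) and replicate 2 of Mlx (lowest, 11.29).

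Silenced groups differed from each other beyond 2-fold, by a direct test of the difference, in 12 comparisons of named list genes. Most of these genes were named because they differed from CN-10. Over the whole list of 51, 7 were called in 4-18 against 3-44 (4.98% of all genes), 1 in 3-44 against shRNA3T (2.12%) and 5 in 4-18 against shRNA3T (4.56%). These include Epas1, outside the naming rule, at -1.15 in 4-18 against 3-44 (limma adjusted p = 0.000331). In log2 units 4-18 exceeded 3-44 by 2.90 for Gckr, 1.23 for Pfkm, 1.75 for Pfkp, 3.00 for Ldhb and 1.16 for Mlx, and exceeded shRNA3T by 2.87 for Gckr, 1.71 for Pfkp, 2.64 for Ldhb and 1.46 for Mlx. For Pdhb the differences were -1.47 from 3-44 and -1.07 from shRNA3T. Eno2 differed by -1.25 in 3-44 against shRNA3T, with overlapping arrays, and its second probe gave -0.35 (limma adjusted p = 0.468). The second Mlx probe put 4-18 above 3-44 by 0.97 (0.00412) and above shRNA3T by 0.81 (0.0147), both under 2-fold.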

How the results depend on the processing

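Scaling by the 75th percentile moved the median log2 difference of all probes to 0.86 in 4-18 against CN-10, 0.84 against 3-44 and 0.97 against shRNA3T, so values were also centred on that median. Calls of list genes (10, 1 and 4 against CN-10 in 4-18, 3-44 and shRNA3T, and 7, 1 and 5 in 4-18 against 3-44, 3-44 against shRNA3T and 4-18 against shRNA3T) and of members (2, 2 and 1, and 0, 1 and 0) changed by over 1.5 times as follows. With 75th percentile scaling, list calls became 18 in 4-18, 14 against 3-44, 0 in 3-44 against shRNA3T and 16 in 4-18 against shRNA3T, and member calls 2 in the last. Centred, they became 11 and 16 in 4-18 against 3-44 and shRNA3T, and member calls 1 in 4-18, 0 in 3-44 against shRNA3T and 1 in 4-18 against shRNA3T. The deposited series values gave list calls of 0 in 3-44, 2 in shRNA3T, 11, 0 and 10 between silenced groups, and member calls of 1 in 4-18, 1 in 3-44 and 0 in 3-44 against shRNA3T. These totals hide a change of direction. In 4-18 against 3-44, 5 list genes were called higher and 2 lower in the reported fit. That split was 13 and 1 with 75th percentile scaling, 3 and 8 centred, and 4 and 7 with the series values. In 4-18 against shRNA3T it was 4 and 1, 15 and 1, 3 and 13, and 3 and 7 in the same order. The processed signal gave 6, 2 and, in 3-44 against shRNA3T, 2 list calls. In 3-44 the filter on background and the fit of 2 groups gave 2 list calls each, and the mean over probes gave 0 in 3-44 against shRNA3T. Array weights left 1 member in 4-18 and 0 in 3-44 against shRNA3T. A 1.5-fold limit gave 16, 6 and 10 list calls against CN-10, 4 and 12 in 3-44 and 4-18 against shRNA3T, and 4, 2, 1, 2 and 2 member calls in 4-18, shRNA3T, 4-18 against 3-44, 3-44 against shRNA3T and 4-18 against shRNA3T. Without replicate 1 of every group list calls were 6 in 4-18 and 2 in 3-44, and member calls 0 in 3-44 against shRNA3T. Leaving out 1 array at a time, list calls ran from 7 to 12, 0 to 2, 3 to 4, 7 to 8, 0 to 1 and 4 to 6, and member calls from 1 to 3, 2 to 2, 1 to 1, 0 to 0, 0 to 1 and 0 to 0, in the order above. The cause of these changes was not tested.

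Values under the 2-fold limit changed sign as follows. In 4-18 Pkm2 became 0.52 with 75th percentile scaling, Slc16a1 -0.15 and Mlxipl -0.22 with the series values, Hif1a 0.0021 with the processed signal, and Gapdh -0.0051, Pklr -0.0042, Slc16a1 -0.28, Pdk1 -0.0158 and Mlxipl -0.38 when centred. In 3-44 Pdk2 became -0.0064 with the series values and Mlx 0.12 with the mean over probes. In shRNA3T Pfkp became -0.0067 and Ldhb -0.0039 with 75th percentile scaling, Pkm2 -0.35 and Pdhb -0.0656 with the processed signal, Pdhb -0.0802 with array weights, Mlx 0.10 with the mean over probes, and Gapdh -0.0015, Ldhb -0.0028 and Pdhb -0.0481 without replicate 1. With 1 array left out, Gapdh ran from -0.0329 to 0.0449, Pdhb from -0.0954 to 0.22 and Ldhb from -0.0135 to 0.17 in shRNA3T, and Hif1a from -0.43 to 0.0276 in 3-44.

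The replicate block left the counts of calls at 10, 1, 4, 7, 1 and 5 list genes and 2, 2, 1, 0, 1 and 0 members and changed no call. Among the named list genes, the limma adjusted p crossed 0.05 for Gapdh in 3-44 (0.0619), Mlxipl in 4-18 (0.0473) and Pdk2 in shRNA3T (0.0372). Over the whole list, the genes higher and lower by adjusted p alone in shRNA3T went from 10 and 2 to 11 and 4. The replicate 1 arrays deviated together in all 6 pairs of groups (r 0.175 to 0.443), and arrays of the other numbers in 6 of 18 pairs with r over 0.1 (-0.112 to 0.208). Not every pair passed 0.1, so the numbers were not taken as a pairing, while replicate 1 shares a deviation across the groups. Signal over background limits Hk2, the lower Aldoc probe and the CN-10 level of Pfkp.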
